A study of Mus musculus with 4 samples.

Results

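The genes described here encode the subcortical maternal complex and the cytoplasmic lattices of the mouse egg. The 8 genes, Nlrp5, Ooep, Tle6, Khdc3, Padi6, Zbed3, Nlrp2 and Nlrp4f, were chosen by symbol, and all 8 had a row among the 13658 genes of the authors' deposited table. RNA was profiled in wild-type mouse morulae, the compacting embryos that precede the blastocyst, in 4 samples with 2 per group. Fertilized 1-cell embryos had received 4 to 5 pL of 100 µM siRNA, either siNr1h2, a pool against the mRNA of the oxysterol receptor LXRβ, or siNT, a non-targeting pool, and had then been cultured in M16 medium. The 2 groups shared the injection, the culture and the wild-type genotype, and differed by the siRNA. The mouse strain, the number of embryos per sample and whether replicates were separate injection sessions are not stated in the labels, so p-values measure the spread between these samples, which may be technical. The comparison asks how transcripts respond to loss of Nr1h2 RNA before the blastocyst forms.

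The complex is a store of proteins that the growing oocyte makes and places under the plasma membrane. Its proteins persist through cleavage after much of their maternal mRNA has been cleared, and embryos of mothers that lack one of the core proteins stop or falter in the first divisions. The lattices are fibres of the egg cytoplasm that hold ribosomes, tubulin and other maternal proteins, and they are lost in eggs without Padi6 or core members of the complex. Nlrp5 (MATER), Ooep (FLOPED) and Tle6 form the core. Khdc3 (FILIA) joins it and is also known from embryonic stem cells, where it takes part in the DNA damage response. Libraries were made from polyadenylated RNA, so the values describe transcripts and say nothing of the stored protein.

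The promoters of 4 of these genes are shown because the treatment lowered the RNA of a nuclear receptor and because the growing oocyte is known to switch on many of its genes through E-boxes, the sites of the oocyte factor FIGLA. The sequences are the 250 bases before an annotated transcript start, written 5′ to 3′ in the gene's direction, from RefSeq on GRCm38.p6, a later build than the mm9 named in the submitters' processing notes. All 8 genes matched this promoter table, with 12 start sites in all. Khdc3 and Ooep are the pair with the highest mean normalized counts (defined below), and capitals mark E-boxes (CANNTG, the same on both strands). Khdc3 lies at chr9:73102148-73102397 on the plus strand and Ooep at chr9:78378589-78378838 on the minus strand.
Khdc3: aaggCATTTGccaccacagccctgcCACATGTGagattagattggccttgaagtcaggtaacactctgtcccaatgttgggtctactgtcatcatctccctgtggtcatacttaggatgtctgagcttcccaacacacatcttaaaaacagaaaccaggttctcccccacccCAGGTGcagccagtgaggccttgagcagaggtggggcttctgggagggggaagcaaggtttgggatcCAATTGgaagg
Ooep: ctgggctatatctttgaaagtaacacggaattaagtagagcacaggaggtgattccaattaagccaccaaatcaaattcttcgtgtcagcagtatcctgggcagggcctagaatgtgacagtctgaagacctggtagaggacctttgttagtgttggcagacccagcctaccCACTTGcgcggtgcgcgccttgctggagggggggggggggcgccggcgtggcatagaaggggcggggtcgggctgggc
Tle6 and Nlrp4f are the pair with the half-site of nuclear receptors, AGGTCA or its reverse complement TGACCT, which capitals mark. The window of Tle6 lies at chr10:81597368-81597617 on the minus strand, before the start of a shorter Tle6 transcript, and that of Nlrp4f at chr13:65205717-65205966 on the minus strand.
Tle6: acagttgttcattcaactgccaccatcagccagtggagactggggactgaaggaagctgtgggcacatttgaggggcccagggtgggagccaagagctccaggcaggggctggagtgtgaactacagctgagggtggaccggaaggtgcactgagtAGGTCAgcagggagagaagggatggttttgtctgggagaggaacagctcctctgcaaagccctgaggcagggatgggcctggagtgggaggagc
Nlrp4f: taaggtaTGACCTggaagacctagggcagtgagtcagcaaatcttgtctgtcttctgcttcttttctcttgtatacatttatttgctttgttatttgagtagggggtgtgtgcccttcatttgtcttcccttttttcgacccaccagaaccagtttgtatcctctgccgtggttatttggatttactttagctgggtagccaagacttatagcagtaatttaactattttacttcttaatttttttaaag
The half-site began 94 bases before the Tle6 start and 243 bases before the Nlrp4f start. Motifs were searched on both strands of whole windows, from 250 bases before to 50 after a start. The half-site was found in 2 of 12 windows of these genes and in 16.3% of all 32851 windows. The pair of half-sites spaced by 4 bases that LXR and its partner RXR are known to bind (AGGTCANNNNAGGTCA, which contains the half-site) was found in 0 of the 12 windows and in 0.0152% of all. An E-box was found in 11 of the 12 windows, those of 7 genes, against 72.3% of all windows. Khdc3 held 5 E-boxes, of which a pair overlapped, Ooep held 1, and the single window of Nlrp2 held none of these letters. These matches describe the letters of the windows and are no evidence of binding.

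Khdc3 stood apart in level. Its mean normalized count, the authors' read count divided by a size factor per sample and averaged over all 4 samples, was 13046 in the authors' deposited table, rank 138 of 13658 genes. Ooep followed at 274 and Padi6, the lattice protein of the peptidylarginine deiminase family, at 92.5 in the authors' deposited table. The core gene Tle6, a relative of the Groucho co-repressors, stood at 38.6 in the authors' deposited table. Nlrp4f, an NLRP protein tied to the lattices, stood at 37.2 and the axin-binding zinc finger gene Zbed3 at 30.7 by the authors' deposited table. Nlrp5, which encodes the scaffold of the complex, had a mean of 5.87, and Nlrp2, a maternal-effect gene tied to DNA methylation in the offspring, a mean of 2.96 in the authors' deposited table. Only Khdc3 and Ooep exceeded the median of all genes (142), and Khdc3 made up 96.4% of the summed mean counts of the 8 genes. The 8 genes thus contributed very unequal amounts of RNA, and RNA made by the embryo cannot be told apart from maternal RNA in these values.

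Levels of different genes are compared per kb of the longest GENCODE transcript, since libraries of full-length cDNA give long transcripts more reads. On that scale Khdc3 had a mean normalized count of 7761 per kb, 60.7 times that of Ooep (128 per kb). Padi6 (39.6 per kb), Tle6 (19.2), Zbed3 (15.8) and Nlrp4f (10.5) came next, with Nlrp5 (1.67) and Nlrp2 (0.870) last. No value per sample is at hand, so neighbours in this order have no spread by which to tell them apart. With the median transcript length in place of the longest, Padi6 (143 per kb) passed Ooep (128), Nlrp4f (48.6) passed Zbed3 (16.2), and Nlrp2 (3.97) passed Nlrp5 (1.74). Ooep has 1 GENCODE transcript of 2138 nucleotides, longer than its RefSeq gene model, so its level per kb may be understated.

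**Figure D1:**
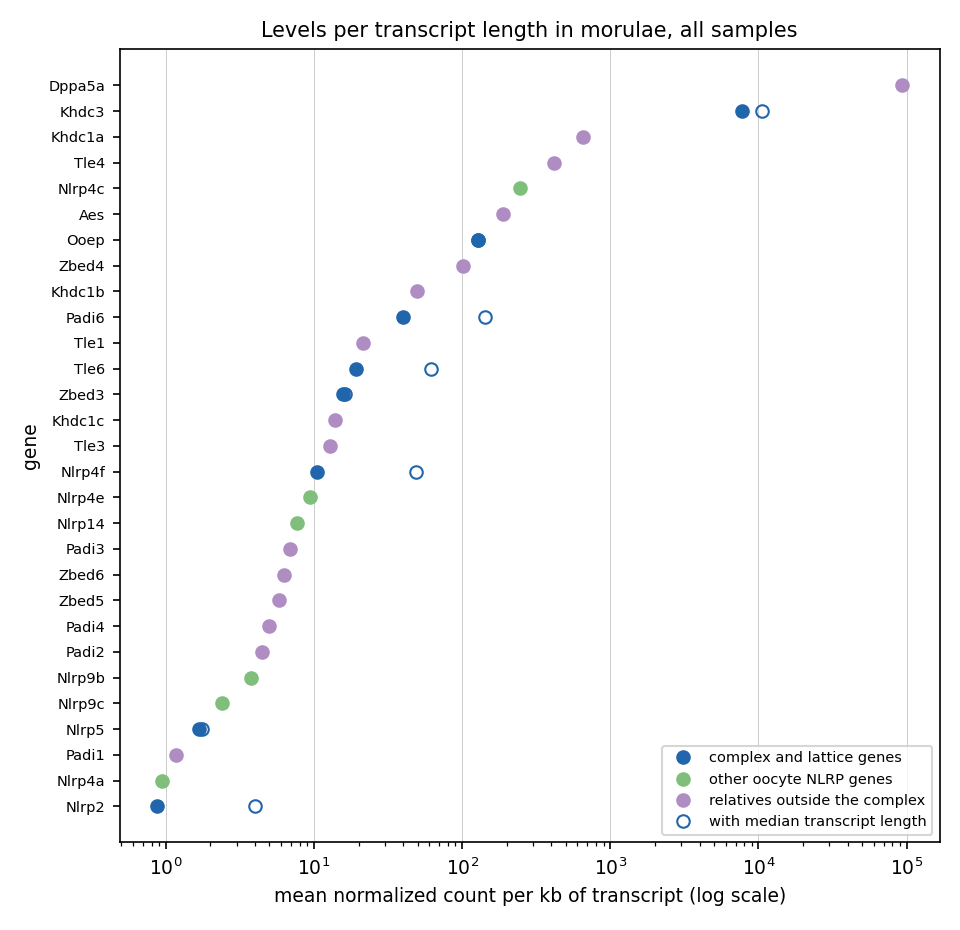
Mean normalized count per kb of transcript (log axis) for the 8 complex and lattice genes, other oocyte NLRP genes and relatives outside the complex, averaged by the authors over all 4 samples. Filled points use the longest transcript and open points the median transcript length of the 8 genes. Khdc3 lies at 7761 per kb and the other members between 0.870 and 128.

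None of the 8 genes passed the test that the authors ran on siNr1h2 against siNT morulae. With the DESeq2 Wald test of the authors' deposited table and an adjusted p under 0.05, 0 of the 6 members with an adjusted p were called, and Khdc3 alone had an unadjusted p under 0.05. Over all genes, 1.98% of the 12069 with an adjusted p were called, 1.52% lower and 0.456% higher. At that background, a list of 6 genes with no call is near what the table as a whole shows. Nlrp5 and Nlrp2 were given none in the authors' deposited table, as were only genes with means of at most 8. Nr1h2 itself was lower, at 19.9% of the siNT level (95% interval 15.4% to 25.7%, with an adjusted p of 3.61e-31 by the authors' deposited table), so the groups differed as labelled in the targeted RNA.

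Group means were worked out from the deposited mean and fold change, taking the 2 groups as equal in size. No value per sample could be had, so overlap between the groups cannot be shown. Khdc3 came to 11747 normalized counts in siNT and 14344 in siNr1h2, a log2 fold change of 0.29 ± 0.14 (SE) in the authors' deposited table. This is 1.22 times higher (95% interval 1.01 to 1.48, adjusted p = 0.352 in the authors' deposited table, unadjusted p = 0.0408), while 1602 of the 12069 tested genes, or 13.3%, had an unadjusted p under 0.05. The value for Khdc3 therefore did not pass, although its interval lay just above 1. Ooep came to 240 normalized counts in siNT and 307 in siNr1h2, 1.28 times higher (0.952 to 1.71, adjusted p = 0.495 in the authors' deposited table). Both KH-domain genes thus had estimates above 1, and neither passed.

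The 4 other genes with an adjusted p had estimates below 1. Tle6 came to 42.6 normalized counts in siNT and 34.6 in siNr1h2, a log2 fold change of -0.30 ± 0.44 (SE) in the authors' deposited table. Padi6 came to 103 and 82.4, a log2 fold change of -0.32 ± 0.30 (SE, adjusted p = 0.720) in the authors' deposited table. Nlrp4f, whose protein is needed for normal lattices, came to 40.7 and 33.6 (-0.28 ± 0.44, SE) by the authors' deposited table. Zbed3, which is known for a role in placing the spindle of the egg and zygote, came to 33.1 and 28.4 (-0.22 ± 0.50, SE) by the authors' deposited table. Each of these estimates lay between 0.44 and 1.04 standard errors below 0. The median log2 fold change of the 6 genes was -0.25, against 0.00 over all tested genes, and 4 of the 6 lay below 0, against 5961 of 12069 genes.

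For Nlrp5 the fold was left undetermined at this depth, with 5.93 normalized counts in siNT and 5.82 in siNr1h2 and a log2 fold change of -0.03 ± 1.08 (SE) in the authors' deposited table. Nlrp2 came to 3.07 and 2.85, with a log2 fold change of -0.11 ± 1.52 (SE) in the authors' deposited table. Their 95% intervals ran from -2.15 to 2.10 and from -3.08 to 2.86 on the log2 scale. At about 3 to 6 counts per sample, neither a loss nor a gain of several fold could have been seen for these 2 genes, for which the authors' deposited table gives no adjusted p. Nlrp5 and Nlrp2 are also the members whose RNA was scarcest per kb.

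**Figure D2:**
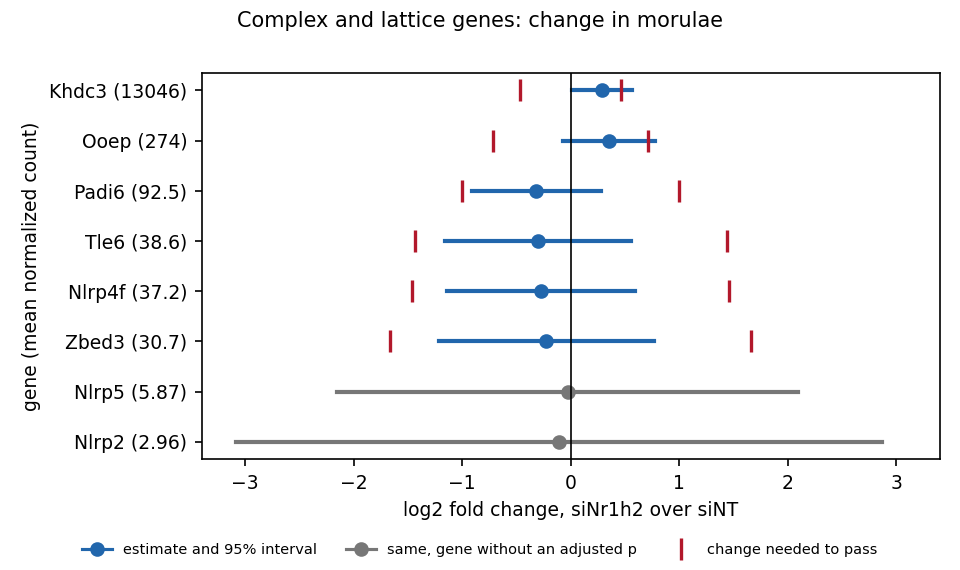
Log2 fold change of siNr1h2 over siNT (points) with 95% intervals (lines) for the 8 genes, ordered by mean normalized count in brackets, and the change that each of the 6 genes with an adjusted p would have needed for one under 0.05 (red ticks). All 6 points lie inside their ticks, which run from 0.46 for Khdc3 to 1.67 for Zbed3 on the log2 scale, and the 2 grey genes have no adjusted p.

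The precision of the test decided how small a change could have been called. The called genes had an absolute Wald statistic, the fold change over its standard error, of at least 3.30. Khdc3 would have been called at a change of 1.38 times and Ooep at 1.64 times. Padi6 needed a change of 2.00 times, Tle6 2.71, Nlrp4f 2.75 and Zbed3 3.17. For Khdc3, Ooep and Padi6 the 95% interval excluded a doubling and a halving. For Tle6, Nlrp4f and Zbed3 it excluded a doubling but not a halving, and for Nlrp5 and Nlrp2 it excluded neither. The lower bound for Padi6 was 53.2% of the siNT level, and those for Tle6, Nlrp4f and Zbed3 were 44.9%, 45.2% and 43.1%, with upper bounds of 147%, 151% and 170%. Counting error, taken as that of 2 libraries per group of equal depth at the mean count, came to 0.803% of the squared standard error for Khdc3 and 16.3% for Ooep. It came to between 24.4% and 30.5% for the 6 others. Depth per sample is unknown, so these shares hold only under that assumption, and what made up the rest was not tested.

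**Figure D3:**
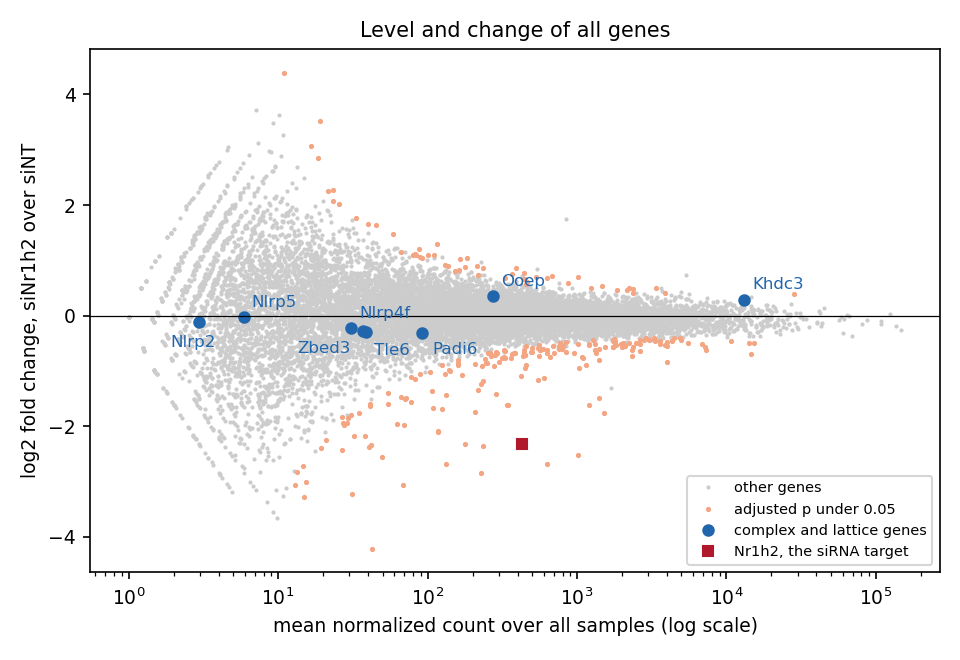
Mean normalized count over all samples (log axis) against the log2 fold change of siNr1h2 over siNT for 13658 genes, with the 239 genes with an adjusted p under 0.05 in orange, the 8 complex and lattice genes in blue and Nr1h2 as a red square. The blue points lie between -0.32 and 0.35 on the log2 scale, while Nr1h2 lies at -2.33.

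How reads that match several genes were counted is not given in the sources used here, and their part in these values was not tested. In the longest Khdc3 transcript, 42.8% of the 50-base stretches also occurred in Gm20509, a model on the same strand that covers 790 bases of Khdc3 exons. Gm20509 had no row in the authors' deposited table. The shares were 8.93% for Nlrp5, mostly with its pseudogene Nlrp5-ps, and 7.08% for Nlrp4f, mostly with Nlrp4g. Nlrp5-ps had a mean normalized count of 4.79 in the authors' deposited table, about that of Nlrp5 itself. For Ooep, Tle6 and Nlrp2 the share was at most 1.39%, and for Padi6 and Zbed3 it was 0. Nlrp2 shares 105 exonic bases with Gm18757 on the other strand, and the library kit does not mark strand.

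Other NLRP genes that oocytes express gave no call. Of 10 listed, 6 had a row and 4 an adjusted p in the authors' deposited table, and 0 were called. Of the 6, 1 had an unadjusted p under 0.05, Nlrp9c, which is not among the 4. Over all tested genes 1.98% were called and 13.3% had an unadjusted p under 0.05. A list this short with 0 calls is near that background. Nlrp4c, a relative of Nlrp4f, had a mean normalized count of 892, or 23.6 times that of Nlrp4f per kb (5.71 times with median transcript lengths), and a log2 fold change of -0.18 ± 0.14 (SE) in the authors' deposited table. Nlrp4e, which lies beside Nlrp5 on chromosome 7, stood at -0.96 ± 0.50 (SE, adjusted p = 0.392) by the authors' deposited table. Nlrp9c, at a mean of 7.67 and with no adjusted p, stood at -2.19 ± 1.06 (SE) by the authors' deposited table. Of 13 NLR genes known from immune cells and somatic tissues, 8 had a row and 7 an adjusted p. Of the 7, 0 were called, again near the 1.98% over all tested genes, and 1 had an unadjusted p under 0.05. Ciita, the activator of class II histocompatibility genes, came nearest, with a log2 fold change of 1.01 ± 0.31 (SE, adjusted p = 0.0565) in the authors' deposited table. Among genes with a mean of at least 50, Ciita passed (adjusted p = 0.0494). Nlrc3 and the inflammasome sensor gene Nlrp3 stood at 0.99 ± 0.62 and 0.74 ± 0.55 (SE) by the authors' deposited table.

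Relatives of Ooep, Khdc3, Padi6, Tle6 and Zbed3 outside the complex did not pass either. Of 17 listed, 15 had a row, 14 had an adjusted p and 0 were called (1 had an unadjusted p under 0.05), with a median log2 fold change of 0.06. With 1.98% called over all tested genes, 0 of 14 is near the background. Zbed4, a zinc finger gene of the family of Zbed3, stood at -0.40 ± 0.16 (SE, adjusted p = 0.203) by the authors' deposited table, and was lower when centred on ribosomal protein genes (adjusted p = 0.0367). The Groucho gene Tle3 stood at 0.51 ± 0.28 and Khdc1b, of the KH-domain family, at -0.49 ± 0.28 (SE) by the authors' deposited table. Dppa5a, the KH-domain gene beside Ooep on chromosome 9, was picked after its value was seen. Its mean normalized count was 58013, 732 times that of Ooep per kb, and its log2 fold change was -0.02 ± 0.13 (SE) in the authors' deposited table. The level of Ooep per kb may be understated, as said above, which would make this ratio too large. The deiminase genes Padi1, Padi2, Padi3 and Padi4 had means between 4.42 and 22.6 in the authors' deposited table, below the 92.5 of Padi6.

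In a list of partners of the complex and their functional neighbours, 2 genes of the 14-3-3 family were lower. The list holds proteins known to bind the complex or to be stored with the lattices and their close functional neighbours. Of 16 listed, 15 had an adjusted p, 2 were lower, 0 were higher and 13 did not pass, with a median log2 fold change of -0.11. Over all tested genes 1.52% were lower. The list had a median mean normalized count of 4019, against 142 over all genes. Its median standard error was 0.134, against 0.226 over tested genes. Smaller changes could thus be called in this list, so its share and that of all genes are not like for like. Both called genes encode 14-3-3 adaptors, which bind phosphorylated proteins. Ywhah was 1.55 times lower in siNr1h2 (95% interval 1.29 to 1.86, adjusted p = 0.000583) in the authors' deposited table. Ywhaq was 1.43 times lower (1.20 to 1.69, adjusted p = 0.00599) by the authors' deposited table. With a t distribution of 2 degrees of freedom neither passed (adjusted p = 0.948 for both), nor did any other gene, Nr1h2 included. That setting called nothing, so it cannot tell these 2 calls from any others. The other 5 genes of the family, Ywhab, Ywhae, Ywhag, Ywhaz and Sfn, stayed between -0.17 and 0.17 on the log2 scale by the authors' deposited table and did not pass, under either centring described below as well. The lattice-bound proteins UHRF1 and NLRP14 and the ubiquitin-conjugating enzyme UBE2D3 are encoded by Uhrf1, Nlrp14 and Ube2d3. These stood at 0.23 ± 0.17, 0.56 ± 0.54 and -0.32 ± 0.12 (SE) by the authors' deposited table, and none passed. Centred on ribosomal protein genes, 4 of the 15 partners were lower, with Ube2d3 and Skp1a beside Ywhah and Ywhaq.

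Other maternal-effect and oocyte transcripts gave no call. Of 34 listed, 20 had a row, 16 had an adjusted p and 0 were called, near the 1.98% called over all tested genes. The lists overlap, since Nlrp14 is also counted among the partners and the other oocyte NLRP genes. Of the 16 with an adjusted p, 5 had an unadjusted p under 0.05, against 13.3% of all tested genes. Among these 5, Dppa3, Bmp15, Zp3 and Dazl lay below 0 and Sohlh2 above it. The median mean normalized count of the 20 was 18.6, against 37.9 for the 8 complex and lattice genes and 142 for all genes. Dppa3, which encodes the maternal factor STELLA, had the highest mean of the authors' deposited table at 147367. It stood at -0.26 ± 0.11 on the log2 scale (SE, adjusted p = 0.271) by the authors' deposited table; centred on ribosomal protein genes, it and Dazl were lower. The germ cell genes Sohlh2 (adjusted p = 0.0516) and Dazl (adjusted p = 0.105) lay above and below 0 in the authors' deposited table, and Sohlh2 passed among genes with a mean of at least 50 (adjusted p = 0.0452). In the machinery that clears maternal mRNA, 1 of 12 genes with an adjusted p was lower and 0 were higher, against 1.52% lower over all tested genes. The median standard error of this list was 0.178, against 0.226 over all tested genes. The called gene was Zfp36l2, an activator of mRNA deadenylation, 1.71 times lower (95% interval 1.33 to 2.19, adjusted p = 0.00387) in the authors' deposited table. With the t distribution neither Zfp36l2 nor any other gene passed. Centred on ribosomal protein genes, Cnot8, a deadenylase gene, was lower as well.

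**Figure D4:**
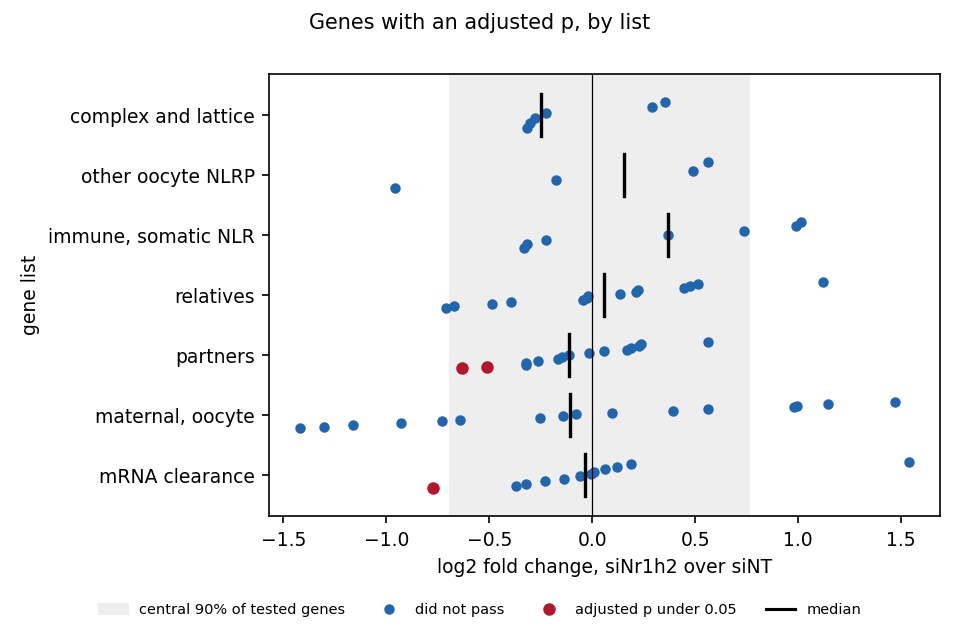
Log2 fold change of siNr1h2 over siNT for the genes with an adjusted p in 7 lists, with medians as black lines, called genes in red and the central 90% of all tested genes as a grey band (-0.69 to 0.76). The 6 complex and lattice genes with an adjusted p lie inside the band, as do the called 14-3-3 genes, while Zfp36l2 lies left of it.

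Markers of the labelled stage were present. All 15 morula and lineage markers had an adjusted p, with means from 86.9 (Fgf4) to 3621 (Gata6) in the authors' deposited table. Of the 15, 1 was lower (Krt8), against 1.52% lower over all tested genes. An unadjusted p under 0.05 was found for 3 (Krt8 and Krt18 below 0, Pou5f1 above), against 13.3% of all tested genes. Of 11 cumulus and granulosa markers 3 had a row, with a highest mean of 29.6 (Star), of 7 sperm markers 0, and of 7 blood and immune markers 3, with a highest mean of 150 (Cd68), in the authors' deposited table. Only 1 cumulus and granulosa marker and 2 blood and immune markers had an adjusted p. None of these non-embryo markers was called (0 had an unadjusted p under 0.05), against 1.98% called over all tested genes. The part of the non-embryo markers in the values above was not tested. Over all genes 239 were called, 184 lower and 55 higher. Centring on genes with a mean of at least 500 gave 142 lower and 82 higher, and centring on ribosomal protein genes, which lowered all log2 fold changes by 0.11, gave 442 and 36. None of the 8 complex and lattice genes was called under either centring.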

How the data were processed

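The members and lists were chosen with earlier results of these data known. The submitters' processing notes name mm9 as the build and, with no role given, DESeq2, edgeR, STAR, RSEM, HTSeq 0.12.4 and Cufflinks 2.2.1. Libraries were made with SMART-Seq v4 and Nextera XT, per the labels' protocols. The authors deposited 1 table of their DESeq2 comparison: the mean normalized count (a signal, counts over size factors), log2 fold change and standard error, Wald statistic (a score), p-value and Benjamini-Hochberg adjusted p-value. It holds no value per sample, so depth is unknown, the test could not be repeated, and there were 0 unused columns of per-sample values. The deposited statistics, p-values and adjusted p-values were checked by recomputing them. Intervals are 1.96 standard errors. Named were all members, Nr1h2 and, of each list, the called genes or else up to 3 with the smallest p; any others were chosen after their values were seen. Transcript lengths came from GENCODE vM21 (GRCm38), for 99.4% of tested genes. Python 3.11.15, pandas 2.3.3 and scipy 1.17.1 were used, and scripts were tested on simulated data. Alternatives covered the threshold, low-count filter, centring, length and GC, a t distribution and transcript length.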

Additional observations from a re-analysis of the deposited data

How the results depend on the processing

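In all 8 alternatives 0 of the complex and lattice genes were called. Their smallest adjusted p was 0.266 (Khdc3, centred on genes with a mean of at least 500), against 0.352 as deposited. Not every alternative could have called a member. The threshold of 0.01 could only remove calls, and the t distribution called no gene at all. With means of at least 50 only Ooep, Khdc3 and Padi6 were tested. Nlrp5 and Nlrp2 had an adjusted p only with no filter on low counts. The 2 centrings and the length and GC trend, the 3 settings that move fold changes, gave 24 member values, of which 22 kept their direction. Exceptions were Nlrp5 at 0.012 centred on genes with a mean of at least 500 and at 0.0026 with the length and GC trend removed. Both values lay far inside its error. Called genes over all numbered 395 (125 higher) at a threshold of 0.1, 109 (92 lower, 17 higher) at 0.01, 478 (442 lower, 36 higher) centred on ribosomal protein genes, and 0 (0 lower, 0 higher) with a t distribution of 2 degrees of freedom, which 4 samples leave, where partners and clearance genes also had 0 calls. One gene each of the immune NLR and maternal lists was called (1 and 1) at 0.1, with means of at least 50 and centred at 500. Centred on ribosomal protein genes, 1 relative, 4 partners, 2 maternal and 2 clearance genes were called; the cause was not tested. With median transcript lengths the levels per kb were 1.74 for Nlrp5, 61.7 for Tle6, 10525 for Khdc3, 143 for Padi6, 16.2 for Zbed3, 3.97 for Nlrp2 and 48.6 for Nlrp4f. No paired analysis was possible because the table holds no value per sample; for the same reason leaving out replicates, a second count tool and another normalization were not run.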

Other observations

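Khdc3 and its neighbour Rsl24d1, a gene of ribosome assembly next to it on chromosome 9 in RefSeq's GRCm38.p6 annotation, had values of opposite sign. Rsl24d1 was lower in siNr1h2, with a log2 fold change of -0.41 ± 0.12 (SE, adjusted p = 0.0397) and a mean normalized count of 4432 in the authors' deposited table. The call was lost centred on genes with a mean of at least 500 (adjusted p = 0.0761), with the length and GC trend removed (adjusted p = 0.149) and at a threshold of 0.01. With the t distribution it was lost (adjusted p = 0.948), as were all others. The call stayed at a threshold of 0.1, with no filter on low counts (adjusted p = 0.0449) and with means of at least 50 (adjusted p = 0.0347). It also stayed centred on ribosomal protein genes (adjusted p = 0.0017). Khdc3 stood at 0.29 ± 0.14 (SE, adjusted p = 0.352) by the authors' deposited table. The difference between them was not tested, and the pair was noticed after the values were seen. The other neighbours of complex and lattice genes with a row, Nlrp4e, Dppa5a, Ddx43, Sirt6, Rab27a, Rcc2, Padi4, Pde8b and Aggf1, had adjusted p-values above 0.05 by the authors' deposited table.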
